A study of Mus musculus with 265 samples.

Results

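The NuRD complex genes were taken as Chd4, Chd3, Mta1, Mta2, Mta3, Hdac1, Hdac2, Rbbp4, Rbbp7 and Mbd3, and their chromatin accessibility was read from single-cell ATAC-seq of mouse pre-B cells. A region of the deposited matrix was assigned to one of these genes when its nearest protein-coding start site in GENCODE vM21 was that of the gene and lay within 50 kb. By this rule, 18 of 20103 regions belonged to 9 of the 10 genes. Mbd3 had no region: the region closest to its start site lay 7248 bp away and was assigned to Uqcr11. The cells were ERt2-Ikaros B3 cells, a line of mouse pre-B cells that carries an inducible form of the transcription factor Ikaros. This form is joined to part of the estrogen receptor, and 4-hydroxytamoxifen (4OHT) lets it pass into the nucleus. Both time-points used this same inducible line, so the 0-hour cells also carry the fusion, and the 24-hour cells received 20 mM 4OHT, as the labels give it, with a further dose near 12 hours. Each time-point was captured in 2 Fluidigm C1 runs, with 48 and 47 cells at 0 hours and 60 and 72 cells at 24 hours in the matrix, where the labels list 48, 63, 75 and 73. No source used here says that the runs came from separate cultures, so every p-value below measures the spread between runs, which may be technical.

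NuRD is a chromatin complex that joins 2 enzymatic activities, the ATP-dependent moving of nucleosomes and the removal of acetyl groups from histones. CHD4 and CHD3 are its remodelling ATPases, HDAC1 and HDAC2 its deacetylases, and the MTA proteins form the scaffold that holds the deacetylases. RBBP4 and RBBP7 are histone-binding proteins, and MBD3, like its relative MBD2, links the deacetylase and the remodelling parts. In lymphocytes Ikaros protein is known to be found in complexes with CHD4 and NuRD. ATAC-seq marks DNA that Tn5 transposase can reach, so the values below describe open chromatin at these genes and not their RNA or protein.

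Sequences are shown for the regions on which the results turn, read from the reference genome GRCm38 (mm10) on the strand of the gene, 5′ to 3′, with annotated UTR bases left out. Capitals mark GGGAA or its reverse complement TTCCC, the core of the Ikaros motif, and CCAAT or its reverse complement ATTGG, a common promoter element. The first 3 are the most widely detected start-site regions, for Hdac1 (minus strand, chr4:129542714-129542852), Rbbp4 (minus strand, chr4:129335371-129335521) and Mta2 (plus strand, only the bases before the start site, chr19:8941787-8941874). The fourth lies in an intron of Mta3 (plus strand, chr17:83732261-83732410) and had the widest detection among Mta3 regions. The last lies in an intron of Chd3 (minus strand, chr11:69366588-69366725) and is the sole Chd3 region.
Hdac1 start: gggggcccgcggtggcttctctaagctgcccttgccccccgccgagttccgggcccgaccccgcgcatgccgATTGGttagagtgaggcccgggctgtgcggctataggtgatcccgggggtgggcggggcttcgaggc
Rbbp4 start: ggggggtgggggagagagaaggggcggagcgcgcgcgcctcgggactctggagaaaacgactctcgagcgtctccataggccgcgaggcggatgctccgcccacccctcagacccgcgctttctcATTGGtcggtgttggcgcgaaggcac
Mta2 start: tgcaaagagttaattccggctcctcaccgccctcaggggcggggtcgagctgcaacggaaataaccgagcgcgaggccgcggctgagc
Mta3 intron: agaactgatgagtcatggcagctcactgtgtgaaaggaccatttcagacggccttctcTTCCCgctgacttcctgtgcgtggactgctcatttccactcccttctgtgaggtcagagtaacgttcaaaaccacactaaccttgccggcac
Chd3 intron: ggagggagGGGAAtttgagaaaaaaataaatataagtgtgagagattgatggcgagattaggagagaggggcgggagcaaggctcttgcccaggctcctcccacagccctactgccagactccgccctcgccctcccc

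The runs summed to 164357 and 92639 counts at 0 hours and to 122586 and 142611 counts at 24 hours, and the median cell held 2898, 1787, 1839.5 and 1676 counts in the same order. Cells of 0-hour run 1 were thus deeper than those of the other runs, and a percentage of cells with signal depends on depth. Values are therefore also given after thinning, in which each cell was reduced to 837 counts and 23 shallower cells, most of them from 24-hour run 1, were left out. Of 10 pre-B markers, 9 had a region, and their 33 regions took 1760, 1590, 1930 and 1420 CPM in the 4 runs (CPM is counts scaled to one common run total). Of 5 markers each for T cells, myeloid cells and erythroid cells, only Cd3d, Lyz2 and Klf1 had a region, with 32.4 to 54.8, 0 to 43.2 and 21.6 to 97.9 CPM. The pre-B values are sums over 33 regions and each of the others is 1 region, so these totals cannot be compared between lists.

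The NuRD regions carried sparse signal. All 18 together took 421 of 522193 counts. By run these were 0.0748% and 0.0799% at 0 hours against 0.0938% and 0.0764% of the counts at 24 hours. The 24-hour to 0-hour ratio of the means was 1.1, and the runs of the time-points overlapped, with 24-hour run 2 below 0-hour run 2. When only regions within 10 kb or within 1 kb of a start site were counted, the ratio was 1.42 and 1.45. Both limits leave out the Mta3 intron region, lower at 24 hours, and keep the Chd4 start region, which had 0 counts at 0 hours. Regions within 1 kb as a class also lay higher, with a median log2 change from 0 to 24 hours of 0.33, against -0.06 over all regions. The same ratio for that class was not computed. At least 1 NuRD region was detected in 34 of 48 and 25 of 47 cells at 0 hours (70.8% and 53.2%), and in 41 of 60 and 41 of 72 cells at 24 hours (68.3% and 56.9%). Over all cells this was 62.1%, the same at both time-points. After thinning the shares were 41.9%, 39.8%, 54.4% and 41.4%, so that 24-hour run 1 stood above the other 3 runs. A total of 63 cells had 1 NuRD region, 78 cells (34.4%) had 2 or more, and no cell had more than 7 of the 18.

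**Figure D1:**
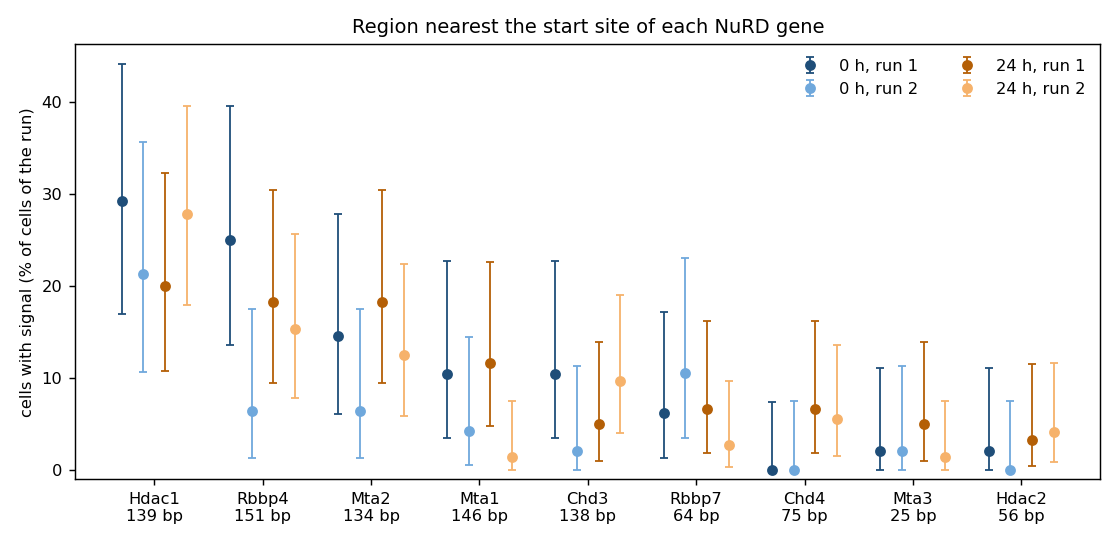
Percent of the cells of each C1 run with signal in the region nearest the start site of each of the 9 NuRD genes, ordered by the mean over runs, with region width under each name. Points are runs and bars are exact 95% binomial intervals (counting error only). Hdac1 lay between 20% and 29.2% in every run, whereas Chd4 was at 0 in both 0-hour runs.

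The histone deacetylase gene Hdac1 had the most widely detected region of the set, whereas among the regions nearest each start site those of its paralog Hdac2 and of Mta3 were the least detected (6 cells each). The Hdac1 region, centred 70 bp before the start site, had signal in 29.2% and 21.3% of cells at 0 hours and in 20% and 27.8% at 24 hours. It was open in 56 of 227 cells (24.7%), at percentile 98.6 of all regions and 97.5 of the 8786 regions that lay under 1 kb from a start. The Hdac1 runs overlapped between time-points, also after thinning (8.9% and 12.5% against 11.1% and 15.9%), and the log2 change from 0 to 24 hours was 0.30 ± 0.52 (SE, n = 2 runs per time-point, edgeR adjusted p = 0.874). Hdac2 had 2 regions on either side of its start site, a 149-bp one centred 161 bp upstream and a 56-bp one centred 78.5 bp downstream in an annotated UTR. The Hdac2 downstream region was detected in 2.08% and 0% of cells at 0 hours and 3.33% and 4.17% at 24 hours, 1 and 5 cells in all. The Hdac2 upstream region was detected in 3 cells of each time-point. No cell had signal in both Hdac2 regions. The downstream region was higher in both 24-hour runs in percent of cells, and in CPM and after thinning. In percent of cells 8.59% of all regions had this order, and 11.9% of those within 1 kb of a start site. The downstream region's log2 change of 2.58 ± 1.68 had an edgeR adjusted p of 0.574. It reached the minimum of 5 cells only through the 24-hour cells, so a change towards 24 hours was favoured.

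In every run Hdac1 was detected in more cells than Hdac2, with a mean difference of 22.2 percentage points ± 4.37 (SD over 4 runs). The exact sign-flip permutation test over 4 runs (two-sided) can go no lower than p = 0.13, the value obtained here, and 0.25 after adjustment over the 6 paralog pairs compared. The Hdac2 region is narrower, at 56 bp, and per base of width Hdac1 remained higher, by 0.134 percentage points per bp.

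The RBBP genes encode the histone-binding subunits. The Rbbp4 region, 151 bp wide and centred 76 bp before the start site, lies in a bidirectional promoter, with the start of Zbtb8os 249 bp from the centre of the region, so its signal cannot be split between these genes. Rbbp4 was detected in 25% and 6.38% of cells at 0 hours and 18.3% and 15.3% at 24 hours. The 0-hour runs thus lay on either side of the 24-hour runs, and the log2 change was 0.51 ± 0.62 (edgeR adjusted p = 0.803). The X-linked Rbbp7 had a 64-bp region centred 152.5 bp upstream, detected in 6.25%, 10.6%, 6.67% and 2.78% of cells in the same order of runs. Its log2 change was -0.43 ± 1.05 (edgeR adjusted p = 0.913). Rbbp4 exceeded Rbbp7 in 3 of 4 runs, by 9.67 percentage points ± 9.8 on average (exact permutation p = 0.25, adjusted 0.25), and 0-hour run 2 had the opposite order. The Rbbp7 region is narrower (64 against 151 bp), and per base of width the difference was 0.00474 percentage points per bp (exact permutation p = 0.875 over 4 runs).

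Among the MTA scaffold genes, Mta2 had the most widely detected start-site region and Mta3 the most regions. The Mta2 region spans the start site and reaches into the annotated UTR, and an antisense transcript, Gm10353, starts 989 bp from its centre. It was detected in 14.6% and 6.38% of cells at 0 hours and 18.3% and 12.5% at 24 hours. These percentages overlapped, whereas in CPM after TMM scaling both 24-hour runs (113.2 and 117.4) were above both 0-hour runs (72.8 and 41.8). This order held for 19.3% of all regions and 28% of those within 1 kb of a start site. After thinning the Mta2 runs did not overlap either, at 4.69% and 2.95% against 8.44% and 5.99%. That order held for 17.4% of all regions and 25.2% of those within 1 kb. The Mta2 log2 change of 0.95 ± 0.67 did not pass the test (edgeR adjusted p = 0.615), and it was 2.28 in thinned cells, 1.46 without 0-hour run 1 and 0.44 with cell number as the offset, where it did not pass either. The Mta1 start-site region had the highest GC content of the set (86.3%, with 30 CpG dinucleotides) and was detected in 10.4%, 4.26%, 11.7% and 1.39% of cells. The Mta1 runs of each time-point differed more from each other than the time-points did, and the log2 change was 0.45 ± 0.93 (edgeR adjusted p = 0.895). An intronic Mta1 region centred 4342.5 bp downstream was detected in 7 cells.

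Mta2 exceeded Mta1 in 4 of 4 runs, and the Mta1 minus Mta2 difference was -6.02 percentage points ± 3.87. After thinning this difference was -1.61, with Mta2 higher in 3 of 4 runs (exact permutation p = 0.25). Mta2 also exceeded Mta3 in 4 of 4 runs, by 10.3 ± 4.13. Mta1 exceeded Mta3 in 3 of 4 runs and tied with it in 24-hour run 2, with a mean difference of 4.28 ± 3.88. The exact permutation p over 4 runs was 0.13 for each of the first pair of comparisons and 0.25 for the last, and 0.25 after adjustment for all of them. The Mta3 start-site region is only 25 bp wide, and per base of width the differences turned to -0.00936 for Mta2 minus Mta3 and -0.0585 for Mta1 minus Mta3.

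The Mta3 region with the widest detection lies inside the gene and had lower values at 24 hours, without passing the test. This region, 150 bp wide with a GC content of 52%, is centred 26172.5 bp downstream of the start site in an intron (the Mta3 intron sequence above) and holds 1 Ikaros core. It was detected in 20.8% and 25.5% of cells at 0 hours and in 8.33% and 4.17% at 24 hours, that is 22 cells (23.2%, exact 95% interval 15.1 to 32.9) against 8 cells (6.06%, 2.65 to 11.6). Both 0-hour runs were above both 24-hour runs, also after thinning (7.37% and 14.4% against 5.19% and 1.66%) and in TMM-scaled CPM (97 and 219 against 72.8 and 36.7). Of all regions, 33.7% likewise had both 0-hour runs above both 24-hour runs in percent of cells, so this order is common. The log2 change was -1.48 ± 0.65, with an unadjusted p of 0.0274 and an edgeR adjusted p of 0.328 over all regions, so it did not pass the test. It stayed negative when each run was left out, from -2.00 to -0.82.

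The other 4 Mta3 regions were each detected in 5 to 9 cells. One lay 10186.5 bp upstream and was detected in 4.17% and 8.51% of cells at 0 hours and 3.33% and 1.39% at 24 hours, again higher in both 0-hour runs, although its CPM overlapped (log2 change -1.55 ± 1.19, edgeR adjusted p = 0.648). With 6 cells at 0 hours and 3 at 24 hours, it reached the minimum of 5 cells only through the 0-hour cells. Just before the start site, 2 short regions of 25 and 27 bp lay 23 bp apart, and 3 cells had signal in both. Their log2 changes were 1.21 ± 1.58 and 1.37 ± 1.58, opposite in sign to the intron. Only the 24-hour cells brought the 27-bp region to the minimum of 5 cells. The 27-bp region has 4 copies in the genome at 90% identity over 80% of its length, so its reads may not be placed uniquely, whereas the other 17 NuRD regions have 1 copy each. A second intronic region, centred 674.5 bp beyond the first, was detected in 5 cells, 1 of which also had the first.

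**Figure D2:**
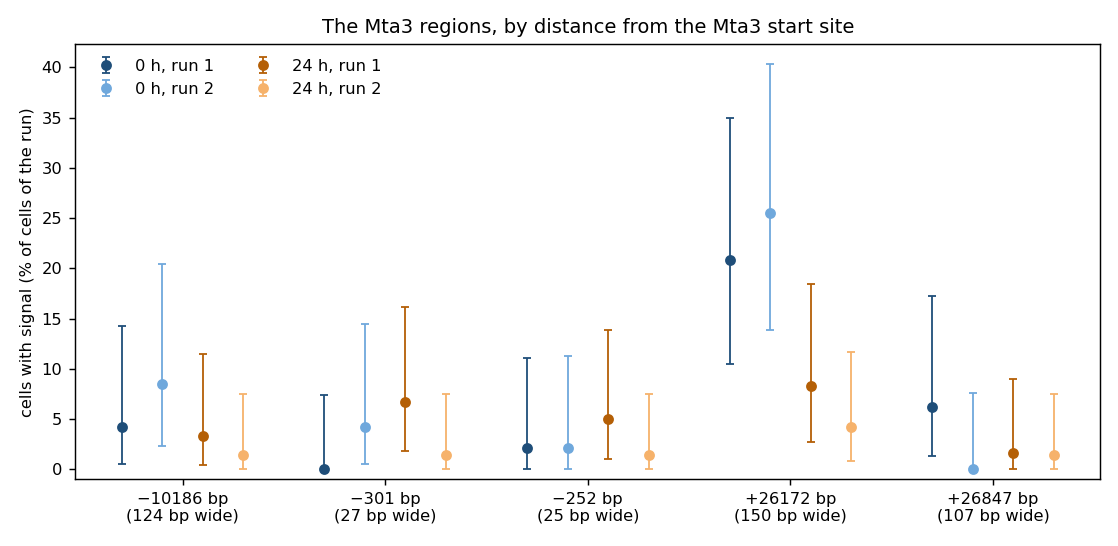
Percent of the cells of each C1 run with signal in the 5 Mta3 regions, by signed distance from the Mta3 start site, with region width in parentheses. Points are runs and bars are exact 95% binomial intervals (counting error only). In the intronic region at 26172.5 bp both 0-hour runs (20.8% and 25.5%) lie above both 24-hour runs (8.33% and 4.17%).

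Summed over its regions, Mta3 was detected in 29.2% and 36.2% of cells at 0 hours and 16.7% and 6.94% at 24 hours. The gene-level log2 change of Mta3 was -1.05 ± 0.49, with an edgeR adjusted p of 0.352 over 9900 genes. Without 24-hour run 1 it was -1.67 with an edgeR adjusted p of 0.0487, where the remaining 24-hour run was assumed to vary like the 0-hour runs, and it is then the sole NuRD gene past the threshold. Under the other alternatives the adjusted p of Mta3 lay from 0.299 to 1, and without 0-hour run 2 or 24-hour run 2 its log2 change was -0.41 and -0.55. Without 24-hour run 1, 246 genes were called higher at 0 hours and 281 higher at 24 hours, against 19 and 16 with all runs. With regions limited to 10 kb or 1 kb around start sites, the Mta3 log2 change was 1.12 and 1.05, of the opposite sign. These limits leave only the 25-bp and 27-bp regions, detected in 6 and 7 cells, and so leave out the upstream region as well as the intron.

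The remodelling ATPase gene Chd4 had 4 regions, none detected in more than 11 cells. The region nearest its start site, 75 bp wide and centred 62 bp downstream in the annotated UTR, had no signal in the 95 cells at 0 hours, which allows a share of up to 3.16%. At 24 hours it was detected in 6.67% and 5.56% of cells, 8 cells in all. Its CPM at 24 hours was 3.55-fold the level that 3 counts would give over the 0-hour cells. This takes the 11 counts at 24 hours as they are, without their counting error or the spread between runs. The region reached the minimum of 5 cells through the 24-hour cells alone, so only a direction towards 24 hours could be seen here. The edgeR test gave an unadjusted p of 0.00844 and an adjusted p of 0.249, the smallest of the set, and its fitted change depends on the prior count. The neighbouring Chd4 region in the same UTR, centred 681 bp downstream, was detected in 12.5% and 2.13% of cells at 0 hours and 3.33% and 2.78% at 24 hours, so its runs overlapped and 0-hour run 1 alone lay high (log2 change -0.54 ± 1.24, edgeR adjusted p = 0.907). These regions shared 1 cell of the 18 that had either.

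Upstream of Chd4, a 149-bp region centred at 3395 bp was detected in 8.33% and 2.13% of cells at 0 hours and 1.67% and 0% at 24 hours (log2 change -2.49 ± 1.69, edgeR adjusted p = 0.594). With 5 cells at 0 hours and 1 at 24 hours, it reached the minimum of 5 cells only through the 0-hour cells, so a change towards 0 hours was favoured. Another, centred at 5989.5 bp, was detected in 4.17%, 0%, 5% and 2.78% of cells (log2 change 1.61 ± 1.34, edgeR adjusted p = 0.684). With 2 and 5 cells, that region reached the minimum only through the 24-hour cells. None of the 4 Chd4 regions passed the test, and their sum gave a gene-level log2 change of 0.51 ± 0.68 (edgeR adjusted p = 0.846). For Chd3, which encodes the alternative ATPase, the only region lies in an intron, centred 2749.5 bp downstream. It was detected in 10.4%, 2.13%, 5% and 9.72% of cells, with overlapping time-points and a log2 change of 0.72 ± 0.90 (edgeR adjusted p = 0.812). The Chd3 region exceeded the Chd4 start-site region in 3 of 4 runs, by 3.76 percentage points ± 5.05 (exact permutation p = 0.25, adjusted 0.25), and per base of width by 0.00866 (exact permutation p = 0.75). Over all assigned regions, 4 for Chd4 and 1 for Chd3, the order was the other way in every run. Chd4 then had signal in 20.8%, 4.26%, 15% and 11.1% of cells (29 cells in all, against 16 for Chd3).

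Ranked by the mean percentage of cells over the 4 runs, without thinning, the regions nearest the start sites ran from Hdac1 (24.6 ± 4.59, SD) through Rbbp4 (16.2 ± 7.73), Mta2 (12.9 ± 5), Mta1 (6.93 ± 4.91), Chd3 (6.82 ± 3.95), Rbbp7 (6.58 ± 3.22), Chd4 (3.06 ± 3.56) and Mta3 (2.65 ± 1.6) to Hdac2 (2.4 ± 1.81). Only 2 steps in this order were larger than the SD of the difference over runs. Hdac1 lay above Rbbp4 by 8.31 ± 6.38 and Mta2 above Mta1 by 6.02 ± 3.87, each in 4 of 4 runs. After thinning both orders turned in 0-hour run 1, where Rbbp4 (8.96%) lay just above Hdac1 (8.9%) and Mta1 (4.89%) just above Mta2 (4.69%). All other neighbours changed places or tied in some run. The regions differ in width from 25 to 151 bp, and apart from the values per base given above the part of width in this order was not tested.

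**Figure D3:**
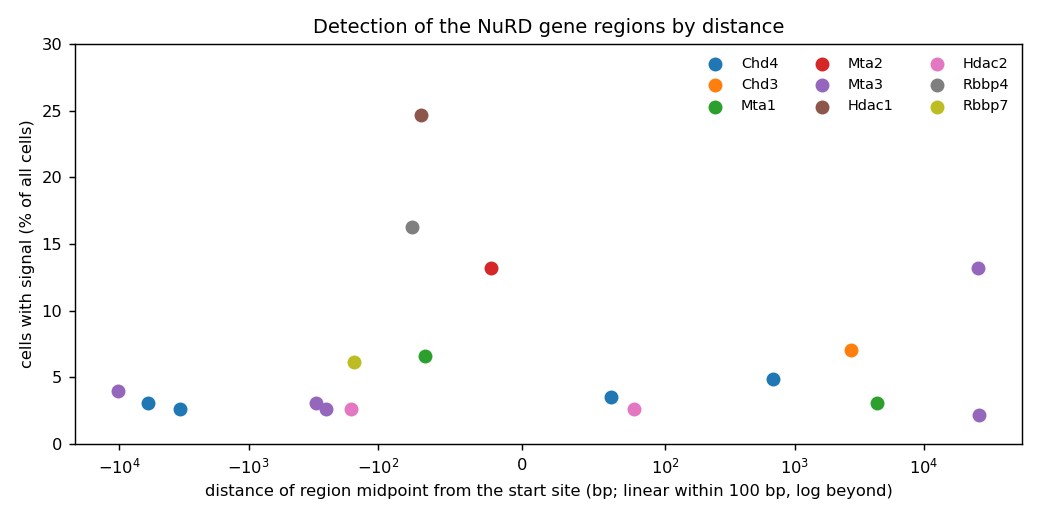
Percent of all 227 cells with signal in each of the 18 NuRD regions (vertical axis), by signed distance of the region midpoint from the start site in bp (horizontal axis, linear within 100 bp and logarithmic beyond); each point is a region, coloured by gene. The 4 regions that reached 10% of cells are the start-site regions of Hdac1, Rbbp4 and Mta2 and the Mta3 intronic region.

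Across the set, 11 of the 18 regions lay at most 1 kb from their start site, 11 were upstream and 7 downstream. The median NuRD region had signal in 8.5 cells, against 13 over all regions. For those within 1 kb the median was 11 cells, against 19 over all regions that close. Only 4 NuRD regions (22.2%) reached 10% of cells, where 23.7% of all regions did.

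The question of whether accessibility at NuRD genes differed between the time-points was asked of each region and each gene. Nuclear Ikaros, 4OHT, time in culture and capture run differ together between them, so they cannot be told apart. No NuRD region passed the edgeR quasi-likelihood test at an adjusted p of 0.05 in either direction (0 of 18), where 0.0547% of all 20103 regions were called (0.0149% higher at 0 hours and 0.0398% higher at 24 hours). At an unadjusted p of 0.05, 1 NuRD region was higher at 0 hours (the Mta3 intron, where 7% of all regions were) and 1 at 24 hours (the Chd4 start, where 5.11% were). DESeq2 called 0 of all regions and hence 0 NuRD regions. At its unadjusted level 0 NuRD regions were higher at 0 hours and 1 at 24 hours, beside 633 and 452 of all 20103 regions. The runs of the time-points did not overlap in percent of cells for 3 regions higher at 0 hours (background 33.7%) and 2 higher at 24 hours (background 8.59%). In CPM these were 2 regions (25.7%) and 5 regions (19.3%), and after thinning 3 (26.5%) and 3 (17.4%). Of the 11 NuRD regions within 1 kb of a start site, 2, 4 and 3 were higher at 24 hours by these measures, in the same order. The background that close was 11.9%, 28% and 25.2%. By each measure 0 of the 11 were higher at 0 hours (background 21.1%, 13.1% and 14.7%). In percent of cells, both regions higher at 24 hours (the Chd4 start and the Hdac2 downstream region) reached the minimum of 5 cells only through the 24-hour cells. Of those higher at 0 hours, the Chd4 region at 3395 bp and the Mta3 region at 10186.5 bp reached it only through the 0-hour cells. At gene level 0 of 9 genes passed the edgeR test, against 0.354% of 9900 genes (0.192% higher at 0 hours and 0.162% higher at 24 hours). Mta3 alone had an unadjusted p under 0.05 (p = 0.0344), so 1 gene was higher at 0 hours (background 6.23%) and 0 at 24 hours (background 5.77%). In percent of cells, 1 gene (Mta3) did not overlap between time-points with higher 0-hour runs (background 28%) and 0 with higher 24-hour runs (background 9.04%), and in CPM these were 0 (21.9%) and 2, Mta2 and Hdac2 (21.5%). DESeq2 gave none of the 9 genes an adjusted p, and 0 of them had an unadjusted p under 0.05, beside 324 and 230 of all 9900 genes.

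**Figure D4:**
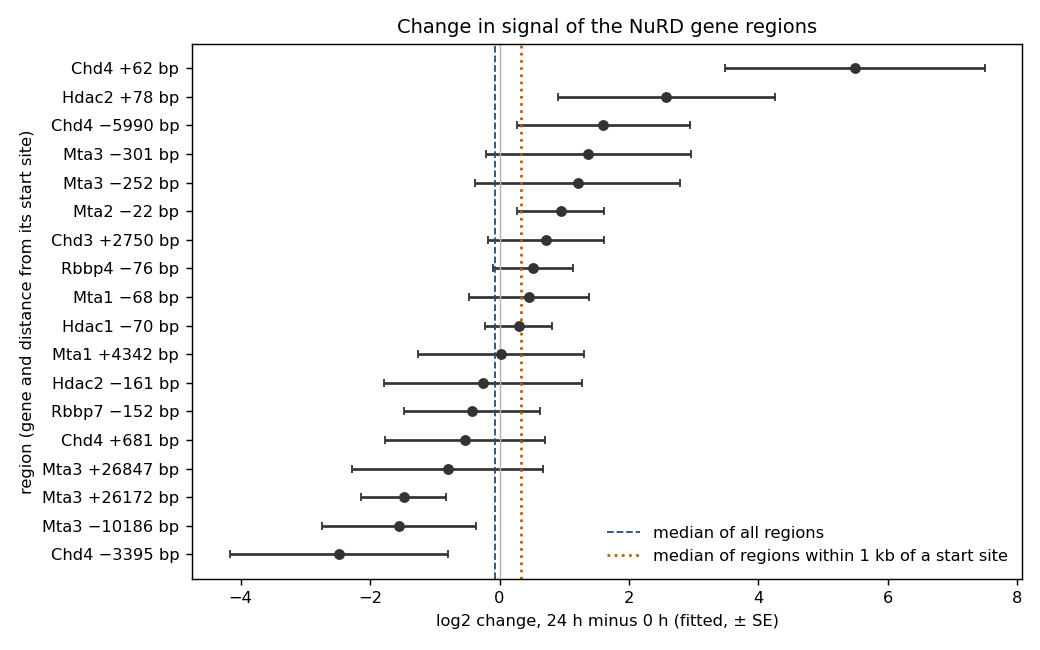
Fitted log2 change of signal from 0 to 24 hours for each of the 18 NuRD regions (horizontal axis, points with bars of ± 1 SE), named by gene and distance from its start site, with vertical lines at 0 and at the medians of all regions (-0.06) and of regions within 1 kb of a start site (0.33). The Chd4 region at the top has no 0-hour signal, and 11 regions lie above 0 and 7 below.

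The median log2 change of the 18 NuRD regions was 0.38, against -0.06 over all regions, with 11 above 0 and 7 below, and it was the same with the Chd4 start region at its lower bound. Within 1 kb of a start site lay 11 of the 18 NuRD regions, against 8786 of all 20103. Those 11 had a median of 0.51, against 0.33 for the 8786. Whether the share of start-site regions bears on the NuRD median was not tested. The 7 genes above 0 and 2 below gave a gene-level median of 0.40, against 0.04 over all genes.

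Further subunits and partners were read from lists of related genes. Of 7 other NuRD subunit genes, 5 had a region, 9 regions in all, and 0 passed the test at an adjusted p of 0.05. The best detected were Gatad2a (40.5% of cells with signal in any of its 4 regions), Gatad2b (36.6%, 1 region) and Pwwp2a (27.3%, 2 regions). Gatad2b, which encodes a subunit that bridges MBD proteins and CHD4, was detected in 35.4% and 19.1% of cells at 0 hours and 38.3% and 47.2% at 24 hours (log2 change 1.12 ± 0.42, edgeR adjusted p = 0.214). Of 21 genes for other complexes or partners of HDAC1 and HDAC2, 13 had a region, and 0 of their 34 regions passed, with Sin3a (53.7% of cells over 6 regions), Arid4a (33% over 4) and Zfpm1 (29.1% over 6) detected best. These lists took 0.0748% and 0.082% of counts at 0 hours against 0.1% and 0.109% at 24 hours for the subunits, and 0.178% and 0.177% against 0.19% and 0.219% for the partners. In both lists the 24-hour runs lay above the 0-hour runs, with ratios of 1.33 and 1.15 beside 1.1 for the NuRD regions. Without Gatad2b, left out after its values were seen, the subunit ratio was 1.09, with 0.0584% and 0.0669% at 0 hours against 0.0677% and 0.0694%. Pwwp2a lay the other way, with 0.0189% and 0.0237% against 0.0171% and 0.0182%.

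Short sequence elements were counted on both strands in windows of 151 bp around each region centre. The Ikaros core GGGAA was found in 4 of the 18 NuRD windows (22.2%), against 39.4% of all windows, and in 2 of the 11 within 1 kb of a start site (18.2%, against 38.2%). The latter are the windows of the short Mta3 regions, which overlap, and the core inside the 27-bp region falls in both of them. Inside the regions themselves it occurred in the Chd3 intron, the 27-bp Mta3 region and the Mta3 intron. The CCAAT box was found in 33.3% of NuRD windows against 22.5% of all, and the GC box GGGCGG in 44.4% against 32.4%. Within 1 kb of start sites these were 45.5% against 30.8% and 54.5% against 55.5%. The ETS element CCGGAAG was found in 16.7% of windows against 9.38%, and within 1 kb of start sites in 18.2% against 16.2%, and the E-box CACGTG in 0 against 5.14%. With 18 windows these are descriptions of letters and not of bound factors.

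The regions whose detection from cell to cell was most like that of the Hdac1 start were assigned to Fndc11, Epb41 and Notch1, with means over the 4 runs of the phi coefficient, a correlation of detected against not detected, of 0.329, 0.317 and 0.315. The Fndc11 values ran from 0.122 to 0.502 over the runs and those of Notch1 from 0.254 to 0.4, whereas the Epb41 mean rested on 0-hour run 1 (0.687), with 0.112 to 0.25 in the other runs. The median over 4644 regions was 0.0747, and phi shares the depth of the cells, so deeper cells raise it for any pair.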

How the data were processed

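Single-cell ATAC-seq libraries were mapped to mm10 with Bowtie2 by the authors, duplicates were removed with Picard, and peaks were called on bulk samples with HOMER. The authors deposited raw counts per region and cell, 20103 regions by 227 cells, without normalization. The paper gives other numbers of regions and of cells per time-point than this matrix holds. Values run from 0 to 2, and no source used here says how higher ones were treated. The file does not say whether starts count from 0 or 1; they were read as 1-based. No 2 cells had identical columns. The 6 bulk samples were not analysed here, and no doublet caller was run, since capture sites were inspected in the study.

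Counts were summed per C1 run. The test over all regions and over all genes was edgeR 4.0.16 under R 4.3.3 (quasi-likelihood, TMM, Benjamini-Hochberg, threshold 0.05), with DESeq2 1.42.0 as an alternative. A minimum of 5 cells with signal left all regions in. Paralogs were compared by exact permutation in SciPy 1.17.1. Copies were sought with BLAST 2.17.0. Exact binomial intervals (95%) and the 3-count limit of a 0 cover counting error only. Standard errors were derived from the F statistic. The members, gene lists and tests were chosen with earlier results of these data known. All 10 members and all their regions are named, with the 3 best detected genes of the other lists. Gatad2b's values were added after they were seen.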

Additional observations from a re-analysis of the deposited data

How the results depend on the processing

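Calls among NuRD regions were 0 under every alternative run (a 10% minimum of cells left 4 regions and 5 genes). This says little where thinned cells, detected or not detected values and DESeq2 called 0 of all regions, and dropping the filter changed nothing since it removed no region. Calls were also 0 among NuRD genes under all but one, DESeq2 aside, which gave them no adjusted p: without 24-hour run 1, 1 gene (Mta3) was called higher at 0 hours, so the count ranged from 0 to 1 over the runs left out. Thinned cells and cell number as the offset called 0 of all genes, so 0 NuRD genes says little there. The ratio of the NuRD share of counts ranged from 0.988 to 1.21 over the runs left out and was 1.42 and 1.45 with regions within 10 kb and 1 kb. With width taken into account, Mta1 minus Mta3 was -0.0585 and Mta2 minus Mta3 -0.00936 percentage points per bp, and Rbbp4 minus Rbbp7 (0.00474) and Chd3 minus Chd4 (0.00866) kept their sign at exact permutation p of 0.875 and 0.75. In thinned cells the differences kept their sign but were smaller, at 10.8 for Hdac1 minus Hdac2, 4.32 for Rbbp4 minus Rbbp7, 4.70 for Mta2 minus Mta3, 3.09 for Mta1 minus Mta3, -1.61 for Mta1 minus Mta2 and 1.83 for Chd3 minus Chd4. Leaving out runs, the paralog differences kept their sign. The replicate numbers do not pair the runs (correlation of deviations -0.0109), and with a replicate block 0 NuRD regions and 0 NuRD genes were called, as without it.

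Signs of small changes moved with the scaling. When cell number served as the offset, the median of all regions was -0.508 in place of -0.063, and the start regions of Mta1 (-0.048), Hdac1 (-0.14) and Rbbp4 (-0.043) turned negative, as did these genes (-0.17, -0.13 and -0.043). In 1 draw of thinned cells the values were -0.21 for the Hdac1 region and 0.57 for the Rbbp7 region, and -0.35, -0.093 and 0.44 for the genes Hdac1, Rbbp4 and Rbbp7. Limiting regions to 10 kb gave 1.12 for Mta3, and to 1 kb gave 1.05 for Mta3 and -0.028 for Hdac1. Over the runs left out, region values ranged from -1.40 to 1.37 (Mta1), -0.072 to 0.61 (Hdac1) and -1.44 to 0.75 (Rbbp7), and gene values from -0.16 to 0.50 (Hdac1), -1.22 to 0.93 (Mta1), -0.056 to 1.40 (Rbbp4) and -1.59 to 0.68 (Rbbp7). Without a change of sign, the values over the runs left out ranged from 0.063 to 1.51 for the gene Chd4, 0.26 to 5.20 for Hdac2 and 0.046 to 1.36 for Chd3. For start regions they ranged from 2.00 to 4.73 (Hdac2), 0.023 to 1.56 (Rbbp4) and 0.13 to 1.52 (Chd3). In thinned cells the genes Chd4 and Mta2 had 1.78 and 2.16, against 0.51 and 0.84 in the main test. The cause was not tested. Each value rests on 5 to 56 of 227 cells, which limits its precision. Over all regions, 3 and 8 were called, 0 by DESeq2, and 341 and 456 without 24-hour run 1.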
